A study of Rattus norvegicus with 20 samples.

Results

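Day 14 after a contusion of the rat spinal cord was compared with day 1, over the injured segment and the segments on either side of it. The comparison used 12 of the 20 libraries of the series: 6 taken at 1 day post injury (DPI-1) and 6 taken at DPI-14. Each set of 6 held replicates 1 and 2 of the rostral segment (toward the head), the epicenter (the site of impact) and the caudal segment (toward the tail). The libraries were chosen by their labelled day, segment and replicate number. No sham-operated cord and no replicate-3 library entered the test.

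The series profiled ribosome-depleted total RNA of rat spinal cord after sham surgery and on 3 days after injury, the latest of them DPI-28, and its title names paxillin and the migration of endothelial cells in the growth of new vessels after injury. All 12 samples are contused cord, the labels name no drug, graft or transgene, and the sources used here give no strain, age or sex. The labels do not say whether libraries of different segments with the same day and number came from 1 animal, nor whether replicates came from separate animals. If 3 segments share an animal, each day is represented by 2 animals, and p-values over 6 against 6 libraries are too small.

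In the first day after a contusion, bleeding, edema, death of neurons and oligodendrocytes, and the entry of neutrophils dominate the damaged cord. By the second week, macrophages that clear myelin debris, reactive astrocytes that form the glial scar, fibroblasts and regrowing vessels occupy the lesion. Day 14 against day 1 therefore sets the subacute, remodelling cord beside the acute one. In pieces of tissue, fewer cells of a type and less RNA per cell cannot be told apart.

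The deposited tables pair each read count with a gene symbol, but many symbols did not go with the reads in their rows. Rows named for defining genes of the tissue were empty in the 12 libraries: Gfap, the intermediate filament of astrocytes, Mag, a myelin protein, Aif1, a microglial protein, and Actb, the cytoplasmic actin, had 0 reads. Mbp, a structural protein of myelin, averaged 0.5 reads per library and Nefl, a neurofilament, 0.167. The labelled tissue could therefore not be checked by its markers. A symbol below is the label of a row. What the gene of that name is known to do is given as background, and whether its reads came from that gene was not tested.

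Each table held 30452 rows, of which 4318 with a placeholder name were dropped, and 6437 of the 26134 others had no read in the 12 libraries. Reads in named rows ranged from 1216863 to 4985193 per library at DPI-1 and from 2097680 to 4323610 at DPI-14. On the first principal component, with 48.4% of the variance, the DPI-1 libraries lay between -1.48 and 77.8 and the DPI-14 libraries between -52.7 and -3.22. Epicenter DPI-1 replicate 2 (76.3) and caudal DPI-1 replicate 2 (77.8) stood apart from the other libraries, the next of which lay at 31.6. In the same order, they had the fewest rows with a read of the 12 libraries, 11417 and 12848. Epicenter DPI-1 replicate 2 also had the fewest reads, 1216863. Whether depth set these libraries apart was not tested. The components used counts scaled by library totals alone, unlike the tests below.

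Many rows differed between the days. An adjusted p of 0.05 was passed by 2041 of 9464 tested rows, or 21.6% (edgeR quasi-likelihood test with segment as a covariate, Benjamini-Hochberg adjustment), and 36.4% had an unadjusted p under 0.05. At DPI-14, 911 rows were higher (9.63% of those tested) and 1130 were lower (11.9%). The rows named Scml1 and Akna rose most among the rows that the naming rule took, and those named Ptprd and Metrnl fell most. Reads in the called rises made up 2.82% to 5.88% of a library at DPI-1 and 7.31% to 12.3% at DPI-14, and reads in the called falls 26.7% to 39.1% and 17.5% to 24.5%. These shares describe the size of the change and use the rows that the test chose.

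The split of directions moved with the scaling. With library totals alone in place of TMM factors (a scaling that aligns the bulk of rows between libraries), 1494 rows were higher and 622 lower, and the median log2 fold change of all rows moved from 0.02 to 0.28. The share of rises among the calls went from 44.6% to 70.6%. When the counts of the 3 segments were summed for each day and number, so that 2 sums were compared with 2, 1 row passed, Akna, with 2504 rows at an unadjusted p under 0.05. All 2041 rows kept their direction in the sums, and in 2039 of them the 2 sums of each day did not overlap, against 61.8% of all tested rows. The sums hold the same libraries that chose these rows, so this agreement is a description and no separate support. A limma-voom fit with an estimated correlation of 0.15 within such sets of 3 libraries called 1172 rows, and without that correlation limma-voom called 2109. Leaving out both libraries that stood apart gave 1334 rows, and leaving out epicenter DPI-14 replicate 1, epicenter DPI-14 replicate 2 or caudal DPI-14 replicate 2 gave 1290, 1217 or 1114. Without all 3 libraries of DPI-14 replicate 2 the count was 42, without those of DPI-14 replicate 1 567, without those of DPI-1 replicate 2 977 and without those of DPI-1 replicate 1 3150.

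**Figure D1:**
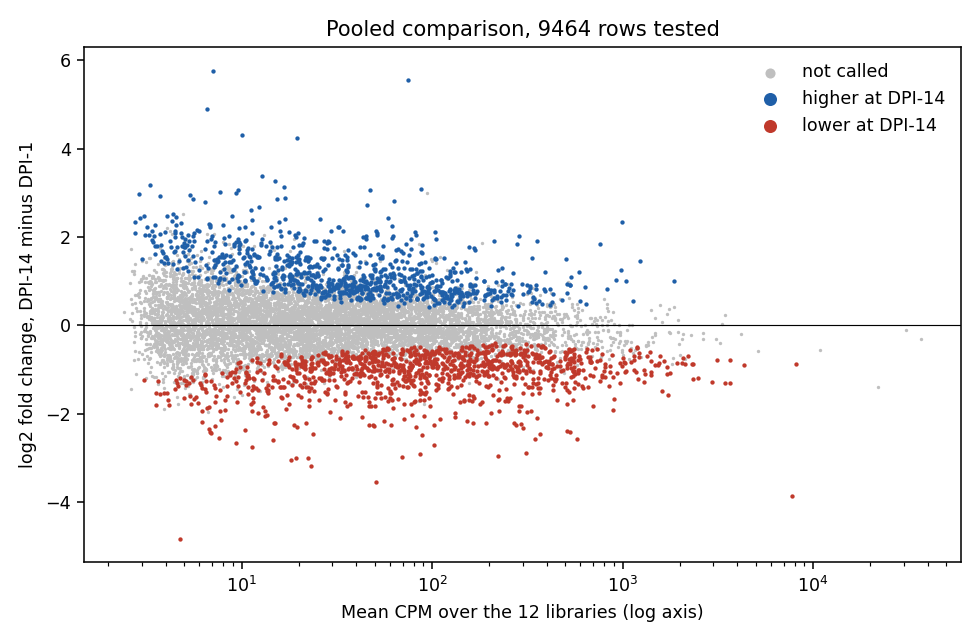
Log2 fold change of DPI-14 minus DPI-1 (vertical axis) against mean level over the 12 libraries (CPM, reads scaled to the size of the library; log axis) for the 9464 tested rows, 1 point a row. Blue points are the 911 called rises, red points the 1130 called falls and grey points the rows not called, and toward the higher levels red points outnumber blue ones.

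Most changes were moderate. Of the called rises, 391 were under 2-fold, 430 were 2- to 4-fold and 90 were 4-fold or more. Of the called falls, 585 were under 2-fold, 486 were 2- to 4-fold and 59 were 4-fold or more. Falls were more frequent among rows with many reads. The tested rows were divided by mean CPM, a read count scaled to the size of the library, into 4 bins of 2366 rows. In the bin with the highest level (85.1 to 36958 CPM), 24.98% fell and 9.55% rose. In the lowest bin (2.42 to 10.1 CPM), 3.13% fell and 6.42% rose. Precision also differs between the bins, since rows with fewer reads vary more by counting alone.

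**Figure D2:**
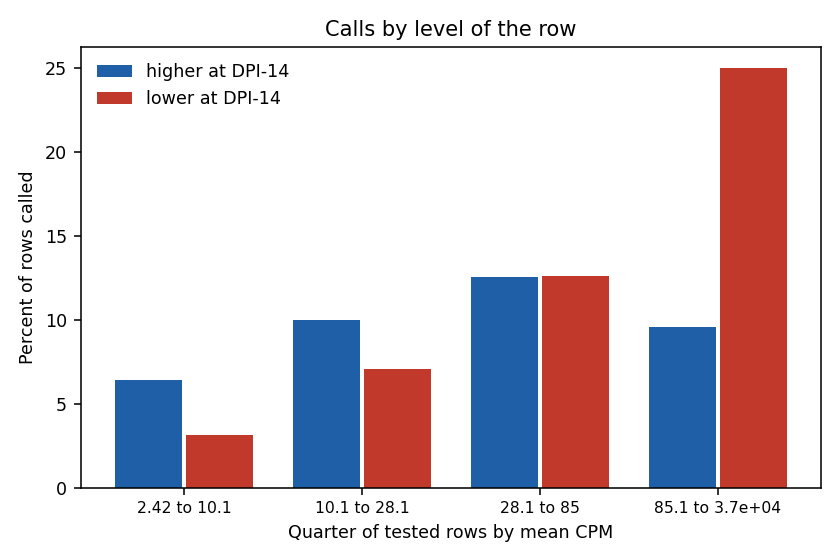
Percent of tested rows called higher (blue) or lower (red) at DPI-14, in 4 equal bins of the tested rows by mean CPM over the 12 libraries. The red bars go from 3.13% in the lowest bin to 24.98% in the highest, and the blue bars lie between 6.42% and 12.6%.

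A rule took the 12 largest rises and the 12 largest falls among the called rows. It asked for at least 10 CPM in the higher day, both DPI-14 libraries beyond both DPI-1 libraries in every segment, and no provisional identifier. Under it 490 rises and 567 falls qualified, so the agreement of segments among the 24 rows was set by the rule. CPM values were scaled with TMM factors, and log2 fold changes are DPI-14 minus DPI-1 with segment in the model.

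The largest rises included several rows that were close to empty at DPI-1. Scml1, named for a protein of the Polycomb group of chromatin repressors, held 4 reads over the DPI-1 libraries, all in epicenter replicate 1, and 272 reads over the DPI-14 libraries. The ratio of reads, relative to library sizes scaled with TMM factors, was 62.4, with a 95% counting interval of 24.1 to 231. Its DPI-14 levels were 14.03 and 13.9 CPM rostrally, 13.9 and 13.4 CPM in the epicenter and 10.3 and 17.99 CPM caudally, and no DPI-14 library came near a DPI-1 library (log2 fold change 5.76, SE 0.67, adjusted p = 0.000589). Stum, named after a gene of mechanical sensing in flies, held 6 reads at DPI-1 and 267 at DPI-14, a ratio of 40.8 (95% counting interval 18.5 to 112). These intervals cover counting error only. Its levels were 0 to 2.30 CPM (median 0) at DPI-1 and 5.67 to 23.5 CPM (median 10.3) at DPI-14, with no overlap (log2 fold change 4.90, SE 0.77, adjusted p = 0.00193).

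The row Akna, named for a protein that organises microtubules at the centrosome of neural progenitors, was higher at DPI-14 in every segment and reached its highest levels at the site of impact. It stood at 1.82 and 0 CPM in the epicenter at DPI-1 and at 434 and 296 CPM at DPI-14. Rostrally it went from 1.15 and 3.40 to 27.2 and 26.98 CPM, and caudally from 0.271 and 2.30 to 29.1 and 72.8 CPM. The days did not overlap in any segment (log2 fold change 5.54, SE 0.68, adjusted p = 0.000935), and the epicenter libraries at DPI-14 lay above those of both flanking segments. The row Orm1, which lies next to Akna in the gene order of the GRCr8 assembly and carries the name of an acute-phase plasma protein, did not pass the filter on low counts, which asks for enough reads in about as many libraries as a day has, and was not tested. It held 5 reads at DPI-1, all in rostral replicate 2, and 400 at DPI-14, of which 169 and 171 came from the epicenter libraries (ratio 73.4, 95% counting interval 31.2 to 227). The ratio pools the segments, and its interval covers counting error only. Rostrally the row held 9 and 4 reads at DPI-14 against 0 and 5 at DPI-1, so little of the rise lay there.

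A further group of rises also reached its highest levels in the epicenter. Klra22, named for a lectin-like receptor of killer cells, stood at 0 to 2.05 CPM (median 0.589) at DPI-1 and 6.57 to 48.4 CPM (median 10.3) at DPI-14 (log2 fold change 4.31, SE 0.57, adjusted p = 0.00104). Nptx1, named for a secreted pentraxin of synapses, stood at 0 to 7.56 CPM (median 0) and 2.37 to 122 CPM (median 13.8) (log2 fold change 4.24, SE 0.73, adjusted p = 0.00333). It was the only one of the 12 rises whose days overlapped over all segments: epicenter DPI-1 replicate 1 (7.56 CPM) lay above rostral DPI-14 replicate 2 (2.37 CPM). Its reads at DPI-1 all came from the rostral and epicenter libraries of replicate 1, so without that replicate the row was at 0 at DPI-1. Jarid2, named for a cofactor of the Polycomb histone methyltransferase, stood at 0 to 5.45 CPM (median 1.70) and 7.41 to 75.6 CPM (median 19.3) (log2 fold change 3.28, SE 0.52, adjusted p = 0.00213). Csnk2a1, named for a catalytic subunit of casein kinase 2, stood at 0 to 3.63 CPM (median 1.06) and 4.45 to 38.6 CPM (median 12.99) (log2 fold change 3.06, SE 0.52, adjusted p = 0.00302). In these 4 rows both epicenter libraries at DPI-14 were higher than all 4 flanking libraries of that day.

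Metap2 and Slc27a5 were likewise highest in the epicenter at DPI-14, with more reads. Metap2, named for an aminopeptidase that trims the first methionine of new proteins, went from 10.3 and 5.13 CPM to 277 and 263 CPM in the epicenter. Rostrally it went from 55.3 and 19.3 to 76.7 and 98.1 CPM, and caudally from 9.22 and 13.2 to 97.6 and 126 CPM (log2 fold change 3.09, SE 0.55, adjusted p = 0.00431). Its log2 fold change was 5.01 in the epicenter, 3.34 caudally and 1.23 rostrally. Slc27a5, named for a fatty acid transport protein that activates bile acids in liver, stood at 3.61 to 21.2 CPM (median 5.79) at DPI-1 and 36.6 to 205 CPM (median 57.2) at DPI-14 (log2 fold change 3.07, SE 0.36, adjusted p = 0.000589).

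Other rises were more even along the cord. Foxj2, named for a forkhead transcription factor, stood at 1.09 to 6.96 CPM (median 2.75) and 15.1 to 51.9 CPM (median 27.6) (log2 fold change 3.12, SE 0.40, adjusted p = 0.000926). Anxa4, named for an annexin that binds membranes with calcium, stood at 0 to 4.03 CPM (median 1.10) and 5.16 to 18.4 CPM (median 14.7) (log2 fold change 3.02, SE 0.64, adjusted p = 0.00787). Apbb2, named for an adaptor of the amyloid precursor protein, stood at 0.576 to 4.11 CPM (median 2.17) and 13.4 to 22.3 CPM (median 15.8) (log2 fold change 2.99, SE 0.36, adjusted p = 0.000639). Its DPI-14 libraries lay close together, at 13.4 and 13.6 CPM rostrally, 15.2 and 22.3 CPM in the epicenter and 16.4 and 17.99 CPM caudally.

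**Figure D3:**
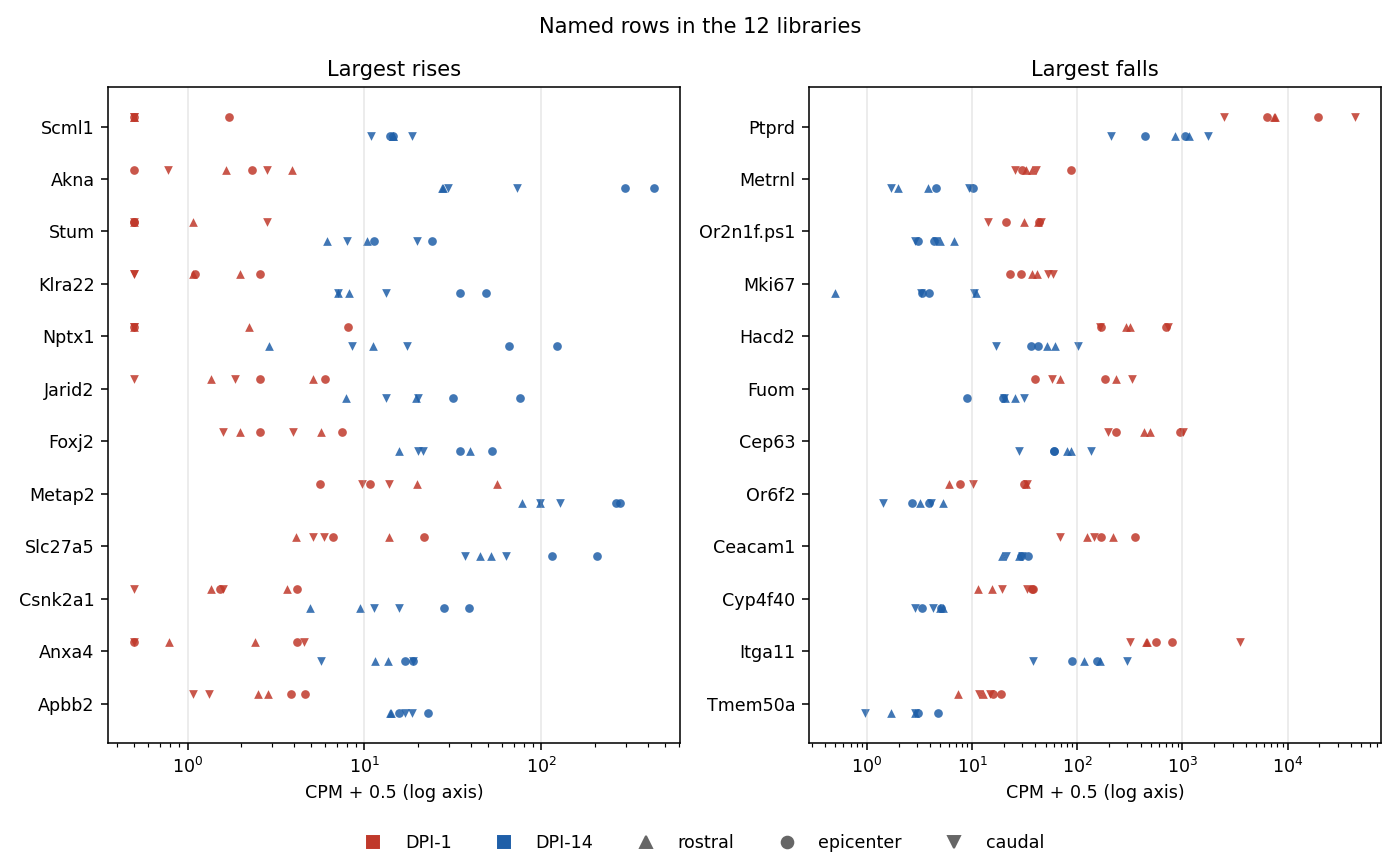
CPM plus 0.5 on a log axis of the 12 largest rises (left) and the 12 largest falls (right), 1 point per library. Red points are the 6 DPI-1 libraries and blue points the 6 DPI-14 libraries, with the marker's shape showing the segment, and in 23 of the 24 rows the colours do not overlap.

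Among the 12 falls, Ptprd was the row with the most reads. It carries the name of a receptor tyrosine phosphatase of synapses and stood at 2493 to 43749 CPM (median 7541) at DPI-1 and 209 to 1767 CPM (median 957) at DPI-14 (log2 fold change -3.86, SE 0.72, adjusted p = 0.00544). Its DPI-1 libraries were far apart, at 7646 and 7435 CPM rostrally, 6372 and 19414 CPM in the epicenter and 2493 and 43749 CPM caudally. The highest values belonged to the replicate-2 libraries of the epicenter and the caudal segment, which stood apart on the first component. Without all 3 libraries of DPI-1 replicate 2 its log2 fold change was -2.52 and no longer passed (adjusted p = 0.0704).

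Hacd2 and Cep63 showed the same libraries at the top, and Itga11 the caudal one of them. Hacd2, named for an enzyme of very long chain fatty acid synthesis, stood at 163 to 728 CPM (median 302) and 16.4 to 100.4 CPM (median 46.4) (log2 fold change -2.94, SE 0.50, adjusted p = 0.00346). Cep63, named for a protein of the centrosome, stood at 193 to 1005 CPM (median 459) and 27.6 to 134 CPM (median 69.3) (log2 fold change -2.89, SE 0.48, adjusted p = 0.00331). In both rows the epicenter and caudal replicate-2 libraries of DPI-1 were the highest. Itga11, named for an integrin subunit that binds collagen, stood at 317 to 3489.9 CPM (median 509.8) and 37.6 to 296 CPM (median 135) (log2 fold change -2.57, SE 0.60, adjusted p = 0.0128). Caudal DPI-1 replicate 2 alone gave 3489.9 CPM, the next library being epicenter DPI-1 replicate 1 at 802 CPM. Without the libraries that stood apart, Itga11 missed the threshold (log2 fold change -1.84, adjusted p = 0.0624), while the calls of Ptprd, Hacd2 and Cep63 remained.

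Fuom and Or6f2 showed the opposite imbalance at DPI-1. Fuom, named for an enzyme that interconverts forms of the sugar fucose, stood at 234 and 68.2 CPM rostrally, 184 and 39.00 CPM in the epicenter and 329 and 57.00 CPM caudally at DPI-1, with replicate 1 the higher in every segment. At DPI-14 it stood at 8.54 to 30.8 CPM (median 19.8) (log2 fold change -2.90, SE 0.49, adjusted p = 0.00345). Or6f2, named for an olfactory receptor, stood at 32.4 and 5.52, 30.6 and 7.18 and 33.1 and 9.79 CPM in the same order and at 0.938 to 4.78 CPM (median 3.04) at DPI-14 (log2 fold change -2.75, SE 0.53, adjusted p = 0.00535). Without the 3 replicate-1 libraries of DPI-1 the log2 fold change of Or6f2 was -1.30 and did not pass (adjusted p = 0.0987), and that of Fuom was -1.42 and passed. Within DPI-1, Fuom and Or6f2 were thus higher in replicate 1 of all 3 segments. Cep63 and Hacd2 were higher in replicate 2 of the epicenter and caudal segments. Rostrally replicate 1 was the higher, at 489 and 429 CPM for Cep63 and 315 and 290 CPM for Hacd2. These rows were singled out for their spread and do not speak for all rows.

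The replicates of DPI-1 also differed in some of the remaining falls. Ceacam1 was higher in replicate 1 in every segment. Metrnl and Or2n1f.ps1 were higher in replicate 2 in every segment. Replicates 1 and 2 of DPI-1 stood at 29.3 and 86.2 CPM for Metrnl in the epicenter and at 13.6 and 44.3 CPM for Or2n1f.ps1 caudally. Ceacam1, named for an adhesion molecule of epithelia and leukocytes, went from 352 and 166 to 28.5 and 33.7 CPM in the epicenter. It went from 219 and 123 to 27.2 and 18.7 CPM rostrally and from 142 and 67.4 to 29.1 and 20.4 CPM caudally (log2 fold change -2.70, SE 0.29, adjusted p = 0.000589). Mki67, named for a nuclear protein of dividing cells, stood at 22.4 to 58.2 CPM (median 38.8) at DPI-1 and 0 to 10.4 CPM (median 3.13) at DPI-14 (log2 fold change -3.0001, SE 0.52, adjusted p = 0.00345). Metrnl, named for a secreted protein of the meteorin family, stood at 25.2 to 86.2 CPM (median 34.4) and 1.20 to 9.81 CPM (median 3.65) (log2 fold change -3.18, SE 0.44, adjusted p = 0.00114). Or2n1f.ps1, named for an olfactory receptor pseudogene, stood at 13.6 to 44.3 CPM (median 36.4) and 2.35 to 6.23 CPM (median 3.91) (log2 fold change -3.03, SE 0.35, adjusted p = 0.000589). Cyp4f40, named for a cytochrome P450 enzyme, stood at 10.9 to 37.8 CPM (median 25.8) and 2.40 to 4.74 CPM (median 4.11) (log2 fold change -2.60, SE 0.35, adjusted p = 0.00104), and it was highest in the epicenter at DPI-1 (37.8 and 36.9 CPM). Tmem50a stood at 6.88 to 18.5 CPM (median 13.2) and 0.469 to 4.21 CPM (median 2.39) (log2 fold change -2.54, SE 0.38, adjusted p = 0.00161). In all 12 falls the 6 libraries of the days did not overlap.

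No omission of a single library ended the call of any of the 24 rows. In the sums of 2 against 2, 23 of the 24 lost it, with adjusted p of up to 0.0945, and Akna kept it (adjusted p = 0.0247). Without the DPI-14 replicate 2 libraries of all 3 segments 12 of the 24 lost it.

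Most called changes held along the cord. A change was said to hold in a segment where both DPI-14 libraries lay on the called side of both DPI-1 libraries there. Of the called rises, 589 of 911 (64.7%) held in all 3 segments, 310 in 2 and 12 in 1. Of the called falls, 647 of 1130 (57.3%) held in all 3, 444 in 2 and 39 in 1. Over all tested rows, called or not, 15.9% were placed in this way in all 3 segments, 7.97% higher and 7.98% lower at DPI-14. The rows that were both called and held in all 3 segments were 13.1% of those tested, 6.22% as rises and 6.84% as falls. Because the pooled test and the positions use the same 12 libraries, the excess among called rows is a description. Over all segments at once, 357 called rises (3.77% of tested rows) and 355 called falls (3.75%) had 6 DPI-14 libraries beyond all 6 DPI-1 libraries, against 8.22% of tested rows in either direction. The count that held in all 3 segments was 1236. Where libraries were left out, holding was judged on those that remained, a looser rule, so those counts cannot be set directly against 1236. The count was 2057 when caudal DPI-1 replicate 1 was left out. It was 1051 with 1 term per segment and day, 721 with 1 term per group over all 20 libraries, 2988 without the 3 libraries of DPI-1 replicate 1, 566 without those of DPI-14 replicate 1 and 42 without those of DPI-14 replicate 2.

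The fold changes had their largest medians in the epicenter. The median log2 fold change of the called rises was 1.20 in the epicenter, 1.02 caudally and 0.95 rostrally, and that of the called falls was -1.16, -0.94 and -0.83. Among the called rises 49.6% had their largest fold change in the epicenter, and among the called falls 59.8%, against 43.1% of all tested rows. The sign was the same in all 3 segments for 910 of 911 rises and 1129 of 1130 falls, against 62.0% of all tested rows. The pooled fit of the same libraries chose the called rows and favours changes that the segments share. These shares and the agreement of signs are therefore descriptions and no separate support. Across the 9464 rows the fold changes correlated between segments with a Pearson r of 0.58 to 0.62, a description over rows that share libraries within a segment.

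**Figure D4:**
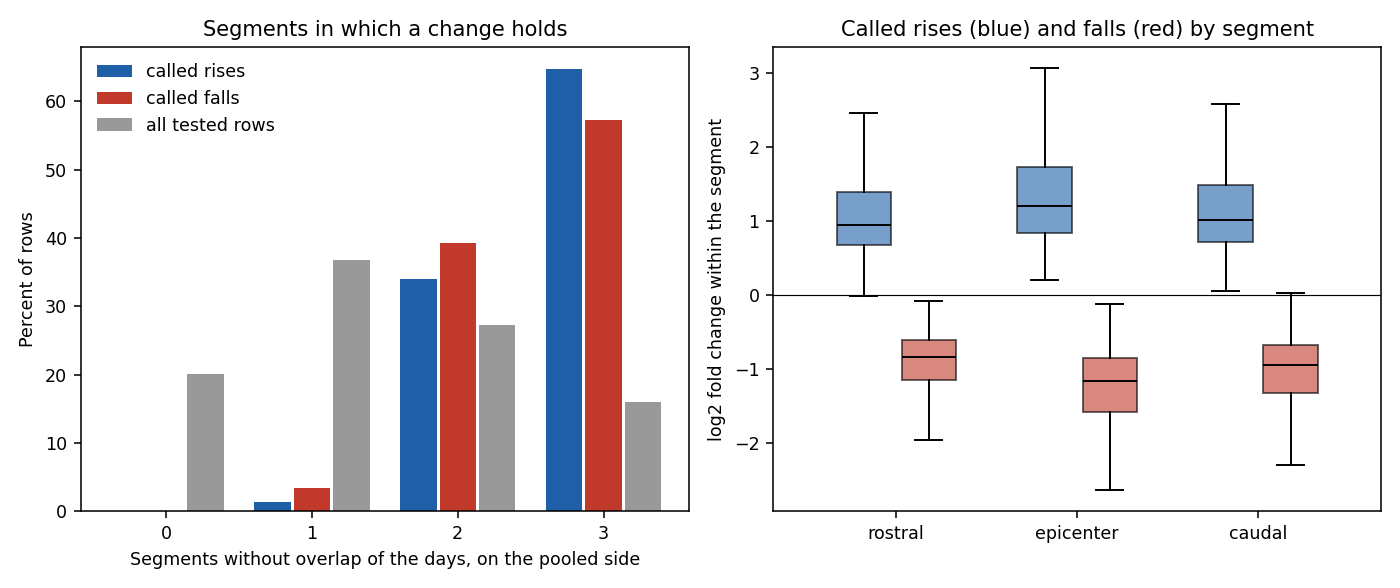
Left, percent of called rises (blue), called falls (red) and all tested rows (grey) by the number of segments in which both DPI-14 libraries lay beyond both DPI-1 libraries on the side of the pooled change. Right, log2 fold change within each segment of the called rises and falls (line, median; box, quartiles; whiskers, the farthest value within 1.5 box lengths), with the epicenter farthest from 0.

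Tested one segment at a time, with 2 libraries against 2 and the spread shared over the 6 groups, few rows passed. The epicenter gave 62 rows (0.655% of those tested), 44 higher (0.465%) and 18 lower (0.19%). DESeq2 gave 736, and 1831 rows (19.3%) had an unadjusted p under 0.05. The edgeR quasi-likelihood test gave 0 rows rostrally, where 863 (9.12%) had an unadjusted p under 0.05 and DESeq2 gave 52. With only the 4 rostral libraries in the fit it gave 545 (165 higher, 380 lower), and with no filter on low counts 276. It gave 0 caudally, where 1164 (12.3%) had an unadjusted p under 0.05 and DESeq2 gave 174, with 0 from only the 4 caudal libraries and 368 with no filter. Of the 62 epicenter rows, 58 were also called in the pooled comparison and 53 also held in all 3 segments. Caudally all 62 had the sign of the epicenter, and rostrally 60 had. Taken in the direction of the call, their median log2 fold change was 2.54 in the epicenter, 1.44 caudally and 0.92 rostrally. The epicenter median is that of the contrast that chose these rows.

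The epicenter count moved with single libraries. It was 463 without caudal DPI-1 replicate 1, 455 without caudal DPI-1 replicate 2 and 275 without epicenter DPI-1 replicate 1. With epicenter DPI-1 replicate 2 left out it was 0, and with epicenter DPI-14 replicate 1 or 2 left out it was 3 or 5. It was 7 without either rostral DPI-1 library and 5 without any 1 of the rostral or caudal DPI-14 libraries. The caudal count was 185 without caudal DPI-1 replicate 1 and 6 without caudal DPI-1 replicate 2.

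Whether the day change differed between segments was tested as an interaction. It passed in 0 rows over all segments (6 by DESeq2; 207, or 2.19%, at an unadjusted p under 0.05). It passed in 0 rows for the epicenter against the mean of the flanking segments (0 by DESeq2; 311, or 3.29%, at an unadjusted p under 0.05). For rostral against caudal it passed in 0 rows (0 by DESeq2; 142, or 1.5%, at an unadjusted p under 0.05). Without caudal DPI-1 replicate 1 the epicenter excess passed in 16 rows and the interaction over all segments in 2, and without caudal DPI-1 replicate 2 the latter passed in 2. The larger fold changes in the epicenter, including those of Akna and Metap2, are therefore given as values. With no filter on low counts the edgeR test called 99 rows over all segments, 82 for the epicenter and 16 for rostral against caudal.

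The row labelled Pxn, which carries the name of the focal adhesion adaptor in the title, was lower at DPI-14. It stood at 364 and 362 CPM rostrally, 221 and 468 CPM in the epicenter and 408 and 434 CPM caudally at DPI-1. At DPI-14 it stood at 282 and 210.2, 69.6 and 142 and 242 and 218 CPM in the same order. Within each segment the days did not overlap, and epicenter DPI-1 replicate 1 was the lowest DPI-1 library, below 2 DPI-14 libraries of the flanking segments. The mean went from 376 ± 86.4 to 194 ± 76.3 CPM (SD, n = 6 each), a log2 fold change of -1.04 (SE 0.25, edgeR adjusted p = 0.0124). Within the segments the log2 fold change was -1.70 in the epicenter (adjusted p = 0.0778), -0.87 caudally and -0.56 rostrally, and none of the 3 passed. The pooled call was lost without the DPI-14 replicate 1 libraries (log2 fold change -1.0030, adjusted p = 0.0506) and without the DPI-14 replicate 2 libraries (-1.04, adjusted p = 0.202). It was also lost with 1 term per group over all 20 libraries (-1.03, adjusted p = 0.0764) and in the sums of 2 against 2 (-0.95, adjusted p = 0.0696).

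Erf and Gsk3a, which lie in the same stretch of the GRCr8 gene order as Ceacam1, also fell. They were adjacent calls, in a run that did not include Ceacam1. The nearest tested rows on either side of Ceacam1, Lipe and Dmac2, had log2 fold changes of 0.11 and -0.51. Erf, named for a repressor of the ETS family, stood at 75.4 to 198 CPM (median 138) and 34.9 to 80.1 CPM (median 44.02) (log2 fold change -1.50, SE 0.20, adjusted p = 0.00104). Gsk3a, named for a glycogen synthase kinase, stood at 61.6 to 136 CPM (median 85.5) and 19.99 to 44.6 CPM (median 25.6) (log2 fold change -1.64, SE 0.25, adjusted p = 0.00161). Of the rows with the most reads, Dcaf7 stood at 30185 to 52604 CPM (median 42547) and 22069 to 48464 CPM (median 31607) (adjusted p = 0.355), and Dcx at 20563 to 50334 CPM (median 29756) and 21245 to 40425 CPM (median 28984) (adjusted p = 0.768). The days overlapped in both rows, and neither passed. Nsg2 stood at 10943 to 58308 CPM (median 29514) and 4701 to 24226 CPM (median 8085), a log2 fold change of -1.38 just outside the threshold (adjusted p = 0.0519). It passed by DESeq2 (adjusted p = 0.00949), and also when caudal DPI-1 replicate 1 (0.0111), caudal DPI-14 replicate 1 (0.0320) or rostral DPI-14 replicate 2 (0.0252) was left out.

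Calls lay beside calls of the same direction in the genome. The order of genes was taken from the GRCr8 table, which matched 8563 of the 9464 tested rows by symbol (90.5%), and only the order was used, since the counts were made on another build. The annotation used for counting is not among the sources used here, and whether a row holds reads of a nearby gene, or adjacent rows reads of the same gene, was not tested. Of the called rises, 358 of 834 (42.9%) had a called rise as the next matched row on either side, against 17.5% of all matched rows. Of the called falls, 443 of 1039 (42.6%) had a called fall beside them, against 21.5%. A call of the other direction lay beside 10.4% of rises and 8.85% of falls. With neighbours whose gene intervals overlap left out, the shares were 39.0% against 16.6% for rises and 39.8% against 20.1% for falls. The sources used here do not give the strand setting of the counting, so reads of overlapping genes on opposite strands cannot be told apart.

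**Figure D5:**
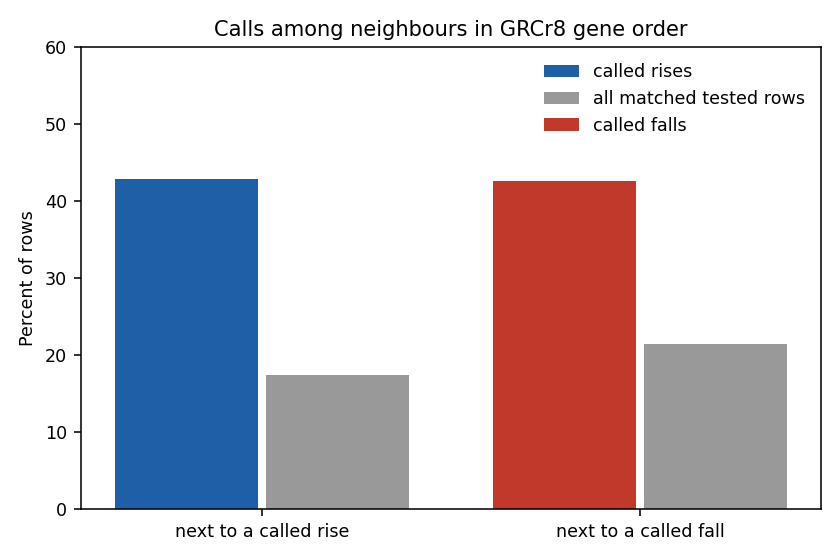
Percent of rows that lie beside a called rise (left pair) or a called fall (right pair) in the GRCr8 gene order. The coloured bars are the called rows of that direction (42.9% of rises, 42.6% of falls) and the grey bars all matched tested rows (17.5% and 21.5%).

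Runs of 3 or more adjacent calls of 1 direction numbered 50 for rises and 46 for falls, and the longest had 7 rows in each direction. The longest rise ran from LOC120100114 over Zfp518a, Blnk, Dntt, Opalin and Tll2 to Tm9sf3. In it Opalin, the name of a membrane protein of mature oligodendrocytes, stood at 0 to 36.9 CPM at DPI-1 and 49.2 to 78.5 CPM at DPI-14 (log2 fold change 1.77). Blnk, the name of an adaptor of B cell receptor signalling, stood at 5.13 to 74.3 CPM and 61.4 to 117 CPM (log2 fold change 1.98). The 7 log2 fold changes ranged from 1.70 to 2.86. The longest fall ran from B4galnt3 over Ccdc77, Kdm5a, Il17ra, Cecr2 and Slc25a18 to Atp6v1e1, with log2 fold changes of -2.20 to -0.70. In it Slc25a18, the name of a mitochondrial glutamate carrier, stood at 117 to 629.9 CPM and 27.2 to 123 CPM (log2 fold change -2.20). Among the named rises, Slc27a5 lay between rows with log2 fold changes of 2.40 (Zfp446) and 2.14 (Trim28), while the nearest tested rows on either side of Akna, Mir455 and Whrn, had 0.55 and 0.19. Orm1, the row next to Akna, is described above and was not tested.

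Lists of row names for cell types and pathways were mostly empty or too low to test. Of 181 names in 19 lists, 175 were present, 27 had no read, 50 had a mean under 1 read and 82 were tested. Of the 82, 4 were called higher and 13 lower, against 21.6% called over all tested rows. No microglial name could be tested, since 7 of 9 had a mean under 1 read. Among names of myelin, Mobp went from 11.96 to 5.77 CPM (log2 fold change -1.06) and Cnp from 98.98 to 54.6 CPM (-0.85), and 8 of the 10 names were not tested. Of 9 tested neuronal names, Gad1, the enzyme that makes GABA, rose (log2 fold change 0.90), and the list's median was -0.07 against 0.02 over all rows. Neutrophil names summed to 52.3 to 941 CPM at DPI-1 and 69.9 to 185 CPM at DPI-14, with 4 of 7 at 0 reads and 0 of 3 tested names called. Csf3r, the receptor of granulocyte colony-stimulating factor, made up most of the sum, with a mean of 195 CPM at DPI-1 against 19.1 for Cxcr2 and 6.38 for Elane.

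The endothelial, angiogenesis and focal adhesion lists had 3, 6 and 10 tested names, with Tek in both the endothelial and the angiogenesis list. Of these names 4 were called, a share close to the 21.6% of all tested rows. Of 3 tested endothelial names, Cdh5, the cadherin of endothelial junctions, rose from 174 to 266 CPM (log2 fold change 0.62, adjusted p = 0.0267). Pecam1, an adhesion molecule between endothelial cells, had -0.09 and Tek, the angiopoietin receptor, -0.79, neither of which passed, and the list's median was -0.09. Kdr, a receptor of vascular endothelial growth factor, had 0 reads. Of 6 tested names of angiogenesis signalling, Angpt2, a ligand that loosens vessels, fell from 304 to 222 CPM (-0.45). Of 10 tested focal adhesion names, Tns1, a tensin that links integrins to actin, rose (1.10) and Pxn fell, and the list's median was 0.12. Among the complement names, C1s, a protease of the first component, fell from 3444 to 1532 CPM (-1.20). Of 7 lysosomal names, Npc2, a cholesterol carrier, and Grn, progranulin, fell (-1.38 and -1.26).

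The other lists had at most 1 call in a direction. Of 8 tested glycolysis names, Hk1, a hexokinase, rose (0.79) and Pfkl, a phosphofructokinase, fell (-1.18). Of 7 tested cell cycle names, Mki67 fell, with a list median of -0.03. One name fell in each of the macrophage (Gpnmb, -0.65), lymphocyte (Cd79a, -0.76) and erythroid (Slc4a1, -1.15) lists. No tested name was called among the astrocyte, pericyte and fibroblast, Schwann cell, ependymal and acute inflammation lists. Since the names do not all go with their reads, these counts describe rows and not pathways or cell types. Rows named for olfactory and vomeronasal receptors, genes of the nose, were called about as often as others: 29 of 337 rose and 37 fell, against 800 and 993 of 8072 rows with other established names.

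The levels at DPI-28 and in sham cord were set beside the called rows, using the replicate-1 libraries only, with no test. These comparisons share DPI-1 libraries with the pooled test, and those by distance share DPI-14 libraries with it too. In all 3 segments the DPI-28 library lay beyond both DPI-1 libraries on the called side in 311 of 911 rises (34.1%, against 7.68% of all tested rows) and in 247 of 1130 falls (21.9%, against 5.53%). By distance instead, DPI-28 was nearer to DPI-14 than to DPI-1 in 45.6% of rises and 37.3% of falls, against 50.5% of all tested rows. The sham library was nearer to DPI-14 in 53.8% of rises and 53.3% of falls, against 46.0% of all tested rows. The row Akna, scaled over these 16 libraries, had 67.3 CPM rostrally, 236 CPM in the epicenter and 12.01 CPM caudally at DPI-28, and 4.88 CPM in sham. Scml1 had 25.3, 25.9 and 28.8 CPM at DPI-28 and 0 in sham. Ceacam1 had 34.9, 55.4 and 29.3 CPM, beside 28.99 CPM in sham. Mki67 had 6.79, 5.58 and 9.37 CPM at DPI-28 and 38.2 CPM in sham, within its DPI-1 range. Ptprd stood at 1493 CPM rostrally at DPI-28, and at 6138 and 6783 CPM in the epicenter and caudally, within the range of the 6 DPI-1 libraries. Its sham level was 1013 CPM, within its DPI-14 range and below every DPI-1 library. Slc27a5 stood at 18.1, 43.6 and 9.61 CPM at DPI-28, and sham, at 84.00 CPM, lay within its DPI-14 range.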

How the data were processed

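RNA was extracted with Trizol and made into libraries with a ribosomal RNA depletion kit, per the labels' protocols. The authors deposited whole-number read counts per row, 1 table per library, not normalised; HISAT2, featureCounts and build rn6 are named per the submitters' processing notes, and versions, annotation and strand setting are not given in the sources used here. Placeholder rows (5.87% to 7.09% of reads) were dropped.

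The counts were fitted with edgeR 4.0.16 in R 4.3.3 (filterByExpr by day, minimum count 10; TMM; robust quasi-likelihood F test; 8 residual degrees of freedom, or 6 with 1 term per segment and day). Benjamini-Hochberg adjustment ran over 9464 rows, with a threshold of 0.05. DESeq2 1.42.0 and limma 3.58.1 were alternatives. The steps were tested on simulated counts. Tables and figures used Python 3.11.15, numpy 2.4.6, pandas 2.3.3 and matplotlib 3.10.9. Principal components used log2(CPM + 1) of the 8667 rows that averaged at least 5 CPM, with CPM from library totals alone and no TMM factors. The libraries that stood apart had the lowest TMM factors of the 12, 0.80 for epicenter and 0.77 for caudal DPI-1 replicate 2. Chi-square per degree of freedom between replicates was 11.6 to 58.2, so no library was counted as a copy. P-values measure the spread between libraries, which may be technical. The members and lists were chosen with earlier results of these data known, and the named rows follow the rule given in the text, with Pxn and 6 other rows added. One member of the name lists is counted in the list totals and not reported here.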

Additional observations from a re-analysis of the deposited data

Results flagged for a closer look

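Dixon's test was applied to 70 sets of 6 libraries, made of the named rows and of library measures such as TMM factors at each day. In 2 sets a library's gap to the nearest other exceeded the 95% limit. The named rows were taken as log2(CPM + 1) and the library measures as they are. Chance marks about 1 in 20 such sets. The row Pxn had 221 CPM in epicenter DPI-1 replicate 1, below the other 5 DPI-1 libraries. The row Scml1 had 1.21 CPM in the same library and 0 in the other 5. With 5 libraries at 0 any read in the remaining library passes the limit. The rate of 1 in 20 therefore does not apply to Scml1, and its flag carries no information.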

How the results depend on the processing

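The pooled count of 2041 rows ranged from 1114 to 2575 with 1 library left out, and was 3150, 977, 567 and 42 without the 3 libraries of DPI-1 replicate 1, DPI-1 replicate 2, DPI-14 replicate 1 and DPI-14 replicate 2. It was 1334 without both epicenter and caudal DPI-1 replicate 2 (chosen after seeing the data), 947 with all 20 libraries in the fit, 1172 by limma-voom with a correlation within sets and 1 in the sums. The 1236 rows holding in all 3 segments ranged from 882 to 2057 with 1 library left out. They were 2988, 566 and 42 without the DPI-1 replicate 1, DPI-14 replicate 1 and DPI-14 replicate 2 sets. With libraries left out, holding was judged on those that remained, a looser rule. The count was 721 with all 20 libraries and 1 in the sums. The 62 epicenter rows ranged from 0 to 463, and were 109 with library totals alone, 814 with no filter on low counts, 15 with the replicate block, 28 with all 20 libraries, 736 by DESeq2 and 26 with only its 4 libraries. The rostral 0 was 276 with no filter, 52 by DESeq2 and 545 with only its 4 libraries. The caudal 0 ranged to 185, and was 368 with no filter, 174 by DESeq2 and 4 with all 20 libraries. The interactions, 0 in the main fits, were 99 over all segments, 82 for the epicenter and 16 for rostral against caudal with no filter, 6 over all segments by DESeq2, and ranged to 2, 16 and 0 with 1 library left out. The cause of these shifts was not tested. Dcx, at -0.10, turned to 0.14 with library totals alone, to 0.0613 without the DPI-1 replicate 1 libraries and to 0.0422 without those of DPI-14 replicate 2, and it passed in none of these. Nsg2 had -0.90 without the epicenter and caudal DPI-1 replicate 2 libraries.

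Between the days, deviations of same-numbered libraries from their group means correlated at 0.23 rostrally, -0.13 in the epicenter and -0.42 caudally. With 2 libraries per group the 2 deviations mirror each other. These values therefore cannot decide whether replicate numbers pair the days. Across segments, libraries of the same day and number correlated at 0.26, 0.26 and 0.55 at DPI-1 and at -0.21, -0.11 and 0.17 at DPI-14. With the replicate block the pooled count was 2023, of which 1902 were also called without it. Rows low in many libraries of both days did not pass the filter, which left out rows with reads in few libraries such as Orm1, and 2 libraries per group limit the segment comparisons.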
